A study of Homo sapiens with 4 samples.

Results

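The 43 genes described here encode core machinery that copies DNA, out of 19740 named genes on the array. They were chosen as named genes of the helicase, origin, polymerase, clamp, fork and chromatin assembly complexes, with earlier results of these data known. Not every subunit of these complexes is a member. Every probe labelled with a RefSeq transcript accession of the gene was taken. This gave 50 probes, 2 each for MCM5, MCM7, PCNA, RFC3, POLE, RPA2 and CHAF1A and 1 for each of the other 36 genes. Hs746T is an established gastric carcinoma cell line with a MET exon 14 skipping mutation and a MET amplification, and all 4 conditions shared both alterations. Labelled cRNA made from total RNA was hybridised to 4 single-colour Agilent human expression arrays, 1 for each condition. Cells were given the vehicle DMSO or PHA665752, an inhibitor of the MET receptor kinase. Other cells were transfected with a scrambled siRNA (SC siRNA) or with an siRNA against MET (MET siRNA). The dose and duration of PHA665752 used for the array were not given in the sources used here. The comparisons asked how MET inhibition and MET knockdown changed gene expression, and the ratio of SC siRNA to DMSO set the controls of both arms side by side.

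Replication begins when the origin recognition complex, CDC6 and CDT1 load the MCM2 to MCM7 ring onto DNA in G1 phase, and the ring becomes an active helicase when CDC45 and the GINS complex join it. Primase and DNA polymerase alpha then start new strands, PCNA and its loader RFC tether polymerases delta and epsilon, and FEN1, DNA2 and LIG1 trim and seal the fragments of the lagging strand. Many of these genes are transcribed late in G1 and in S phase under E2F transcription factors, so that their RNA is abundant in cycling cells and scarce in resting cells.

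The start regions of 4 members are shown because they contrast the sequence near the start site with the response reported below. The windows run from 250 bases before to 50 bases after the RefSeq start site on GRCh38.p14, each read on the strand of its gene, at chr2:135876394-135876693 (minus strand) for MCM6, chr1:35769929-35770228 (minus strand) for CLSPN, chr16:58392221-58392520 (plus strand) for GINS3 and chr10:13161308-13161607 (plus strand) for MCM10. Capitals mark E2F-type letters, an exact match on either strand to TTTCCCGC, TTTCGCGC, TTTGCCGC or TTTGGCGC, and overlapping matches run together.
MCM6: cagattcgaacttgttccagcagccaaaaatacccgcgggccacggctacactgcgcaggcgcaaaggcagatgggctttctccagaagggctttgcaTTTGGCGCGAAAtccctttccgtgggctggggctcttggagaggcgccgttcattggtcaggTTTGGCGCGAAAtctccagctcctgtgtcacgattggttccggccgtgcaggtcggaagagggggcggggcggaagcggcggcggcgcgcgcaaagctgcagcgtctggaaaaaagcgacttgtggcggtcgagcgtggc
CLSPN: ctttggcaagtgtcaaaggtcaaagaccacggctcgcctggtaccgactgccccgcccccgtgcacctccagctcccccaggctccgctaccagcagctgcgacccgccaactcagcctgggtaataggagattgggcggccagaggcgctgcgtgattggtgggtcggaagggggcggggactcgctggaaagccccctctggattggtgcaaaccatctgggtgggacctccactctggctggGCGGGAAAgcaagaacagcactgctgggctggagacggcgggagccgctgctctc
GINS3: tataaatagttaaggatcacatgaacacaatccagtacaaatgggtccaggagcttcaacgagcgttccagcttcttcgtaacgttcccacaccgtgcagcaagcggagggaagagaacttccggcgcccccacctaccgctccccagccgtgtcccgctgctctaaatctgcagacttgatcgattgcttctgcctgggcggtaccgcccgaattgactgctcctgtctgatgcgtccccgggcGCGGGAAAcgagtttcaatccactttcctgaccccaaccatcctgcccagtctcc
MCM10: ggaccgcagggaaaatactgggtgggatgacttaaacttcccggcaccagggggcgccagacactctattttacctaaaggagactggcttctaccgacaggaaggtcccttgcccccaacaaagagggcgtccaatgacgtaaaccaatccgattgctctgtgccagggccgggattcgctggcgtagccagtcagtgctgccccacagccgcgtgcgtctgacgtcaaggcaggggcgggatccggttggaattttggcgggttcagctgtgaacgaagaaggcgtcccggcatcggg

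MCM6 held 4 matches in overlapping pairs, the pairs beginning at positions -152 and -90 from the start site. CLSPN and GINS3 each held 1 match beginning at position -5, with the same 8 letters, and MCM10 held none. The MCM10 window does hold tttggcgg, which differs from TTTGGCGC in its last letter and was not among the searched letters. A window was matched by symbol for 34 of the 43 members, and for MCM4, MCM5, GINS4, DSCC1, POLD3, DNA2, RPA2, RPA3 and RECQL4 none was used. E2F-type letters stood in a window of 20 of these 34 members (58.8%), against 1090 of all 27305 symbols of the RefSeq table (3.99%) and 786 of the 14576 symbols also on the array (5.39%). The letters CCAAT, searched on both strands, stood in 21 of the 34 (61.8%), against 42.2% of the symbols on the array, and the letters TTTGAA of the CHR type stood in 0 of 34, against 15.8%. A match is a description of the letters and not evidence of binding.

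Signals below are the background-subtracted processed intensities, in scanner units, in the order DMSO, PHA665752, SC siRNA and MET siRNA, and log2 ratios were taken after the 75th percentile of each array was subtracted. The signals of different genes come from different probes and cannot be ranked against each other. Each condition was 1 array, so there is no replicate error and no test between conditions, and a gene was counted as lower or higher when its ratio passed 2-fold. The measured error is the scatter between spots of 1 array: for probes printed as 10 spots the median SD was 0.0531 to 0.0589 on the log2 scale, which gives a ratio of 2 single spots an SD of 0.0800 for PHA665752 over DMSO, 0.0761 for MET siRNA over SC siRNA and 0.0793 for SC siRNA over DMSO. It covers neither cultures nor labelling.

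As a check of the labels, MET, the gene targeted by the siRNA, had signals of 221500, 100500, 190000 and 77850, a log2 ratio of -1.33 for MET siRNA over SC siRNA and -0.93 for PHA665752 over DMSO. On the MET siRNA array 5.58% of spots carried an outlier mark and 61.1% of probes were well above background, against 1.69% to 2.21% and 67.4% to 68.2% on the other 3 arrays. Of 12 epithelial markers, 10 had a ratio with PHA665752, with a median log2 ratio of 0.14: MUC1 was higher (1.70), CLDN4 and KRT18 had signals of 91380 and 33630 with DMSO, CDH1 was dim at 33.0, and KRT20 and CLDN3 were not well above background. Of 8 gastric markers, MUC6, TFF1, TFF2 and PGC had a ratio, from -0.05 for MUC6 to 0.72 for PGC, and GKN1 and CDX2 were not well above background. Of 7 mesenchymal markers with a ratio, 4 were higher by 2-fold or more with PHA665752 (median 1.33), and ZEB1 had -0.73. Thus markers of several cell types were above background in this cell line. Of 8 leukocyte markers, 6 had a ratio, with a median of 0.08 and 0 past 2-fold with PHA665752, CD68 had 0.90 for SC siRNA over DMSO, and CD3E was not well above background. Of 4 endothelial markers with a ratio, PECAM1 was lower (-2.39) and VWF higher (2.77) with PHA665752. The part of these marker changes in the results below was not tested. In a bulk sample, fewer cells in S phase and less of each RNA per cell cannot be told apart.

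With PHA665752, most of the chosen replication genes were lower than with DMSO. Of the 42 members with a ratio, 40 were lower by 2-fold or more and 0 were higher, while over all 14322 genes with a ratio 8.04% were lower and 13.1% were higher. Because the members were chosen with earlier results of these data known, their share is not independent of that choice. Among replication genes outside the list, 25 of 47 with a ratio were lower by 2-fold or more. The median log2 ratio of the members was -2.35, a 5.09-fold lower level, against a median of 0.07 over all genes. The members ran from -4.43 for MCM10 to -0.07 for GINS3, and 20 of them lay among the lowest 1% of genes, 37 among the lowest 5% and 41 among the lowest 10%. All 42 were well above background on all 4 arrays.

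**Figure D1:**
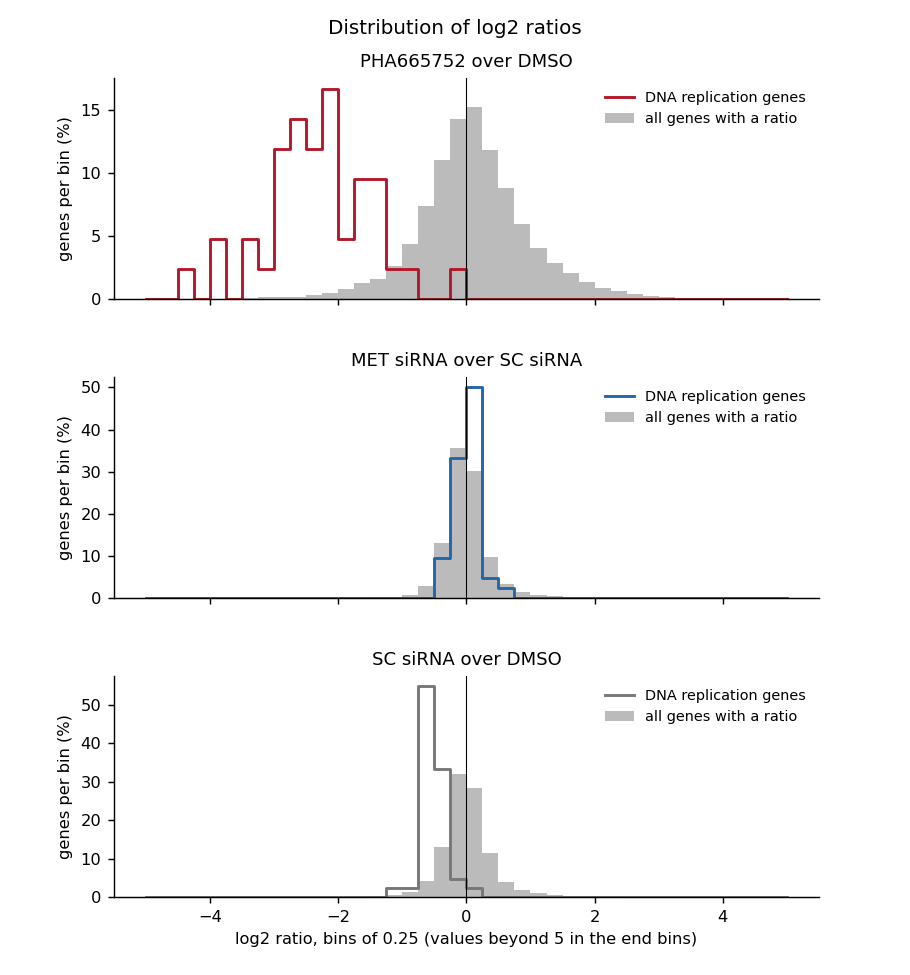
Share of genes (vertical axis, % per bin of 0.25) by log2 ratio (horizontal axis) for the 42 replication genes with a ratio (outline) and all genes with a ratio (grey), in each comparison. The members centre on -2.35 with PHA665752, on 0.02 with MET siRNA and on -0.53 with SC siRNA, against 0.07, -0.02 and -0.01 for all genes.

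The MCM genes encode the ring that unwinds DNA, and all 7 with a ratio were lower by 2-fold or more with PHA665752, with a median log2 ratio of -2.22. MCM2, a subunit of the ring, had signals of 6822, 1113, 4040 and 4438, a log2 ratio of -2.40. MCM6 had signals of 7253, 1951, 3989 and 5095, a log2 ratio of -1.68, the smallest fall of the 7. MCM7 had signals of 91990, 22390, 55020 and 66090, a log2 ratio of -1.82. In each of these, DMSO was the highest array and PHA665752 the lowest, with both siRNA arrays between them. MCM4 (-2.22), MCM5 (-2.13) and MCM8 (-2.405), a relative of the ring subunits that works in recombination repair, lay in the same range. MCM10, a replication initiation factor outside the ring, had the lowest ratio of all members: its signals were 377, 15.1, 208 and 223, a log2 ratio of -4.43, rank 10 from the largest fall of 14322 genes. Its signal with PHA665752 was close to the lowest signal well above background on that array, 12.3, and over the alternatives to the processing its ratio ran from -4.72 to -2.21. MCM3 has 1 probe, whose DMSO spot carried an outlier mark and was left out, so it had no ratio to DMSO. With the marked spot kept, MCM3 signals were 23410, 4083, 14680 and 14800, and the ratio to DMSO was -2.32 with PHA665752.

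Licensing and helicase activation genes held some of the lowest ratios, with a median log2 ratio of -2.98 over 4 genes. CDC45, which joins the ring with GINS to form the active helicase, had signals of 16330, 930.4, 8277 and 8634, a 15.1-fold lower level with PHA665752 (log2 ratio -3.92, rank 19). CDT1, which brings the ring to origins, had signals of 7010, 772, 4106 and 4827, a log2 ratio of -2.97, and GMNN, the inhibitor of CDT1, was lower too, at 8321, 1689, 5743 and 5793 (-2.09). The loader and its inhibitor therefore both stood lower with PHA665752, CDT1 by 7.83-fold and GMNN by 4.25-fold. CDC6, the ATPase that loads the ring, was dim on every array, at 118, 12.8, 72.1 and 62.0, and its ratio of -2.99 became -1.08 with normexp background correction.

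Within GINS, the 4-subunit complex of the active helicase, 3 subunits were lower and 1 was not. GINS2 had signals of 4252, 367, 2169 and 2486, a 9.98-fold lower level with PHA665752 (log2 ratio -3.32, SE between spots 0.025). GINS1 (2929, 434, 1799 and 1809) and GINS4 (6022, 870.2, 2995 and 2504) had ratios of -2.54 and -2.58. GINS3 had signals of 13650, 11230, 11990 and 12620 and a ratio of -0.07, which is inside the scatter between spots. It ranked 5861 of 14322 genes and ranged from -0.36 to 0.08 over the alternatives, so that 9 of the 10 measured subunits of the CDC45, MCM2 to MCM7 and GINS helicase were lower by 2-fold or more and GINS3 was the exception. GINS3 and CLSPN (-3.93), far apart in ratio, carry the same E2F-type letters at the same distance from the start site in the windows shown above. MCM10, with the lowest ratio, has no exact match to the searched letters, though its window holds tttggcgg, unlike TTTGGCGC in the last letter. Whether such letters bear on the ratios was not tested.

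Of the origin recognition complex, ORC1, its cell-cycle regulated ATPase, had signals of 398, 33.1, 244 and 248, a 10.4-fold lower level with PHA665752 (log2 ratio -3.37), which became -1.98 with normexp background correction. ORC6, the smallest subunit, had signals of 1001, 112, 608 and 528 (-2.95, SE between spots 0.029, and -2.35 with normexp). The subunits outside the member list differed from these: ORC2 (-0.66), ORC4 (-0.19) and ORC5 (-0.74) did not pass 2-fold, and ORC3 had no ratio because of an outlier mark. The ORC4 probes disagreed in sign, since the dimmer of them gave 0.64.

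All 6 genes of the clamp and its loaders were lower by 2-fold or more, with a median log2 ratio of -2.31. PCNA, the sliding clamp, had signals of 10050, 1645, 5653 and 5471 (log2 ratio -2.40, SE between spots 0.027), and its second probe gave -2.48. DSCC1, a subunit of the alternative loader that acts in sister chromatid cohesion, had signals of 1520, 165, 942 and 987 (-2.99). The small loader subunits RFC2 (-1.92), RFC3 (-2.23), RFC4 (-2.55) and RFC5 (-2.16) lay close together, although RFC3 became -1.53 with normexp background correction, whereas RFC1, the large subunit that is not a member, had -0.87 and did not pass 2-fold.

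The polymerases and primase had the median closest to 0 among the groups with more than 2 genes, -1.59, and all 7 were still lower by 2-fold or more. POLA2, the accessory subunit of polymerase alpha, had signals of 1551, 155, 1050 and 1135, an 8.60-fold lower level with PHA665752 (-3.105), while the catalytic POLA1 had -1.59. PRIM1, the catalytic primase subunit, had -2.59 (SE between spots 0.031), and PRIM2, its partner outside the member list, had -1.415. POLE2, the second subunit of polymerase epsilon, had -2.09 (-1.44 with normexp). The catalytic subunits POLE (-1.30) and POLD1 (-1.31) and the delta subunit POLD3 (-1.32) were the least lowered of the 7. POLE was dim (203, 71.0, 127 and 139.7 on its brighter probe) and reached only -0.78 with normexp background correction. Of the accessory subunits outside the member list, POLE3 (-1.03) and POLE4 (-1.01) passed 2-fold, POLD2 (-0.70) did not, and POLD4 had 0.78. The second POLE4 probe gave -0.96, just short of 2-fold.

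FEN1, the flap nuclease of lagging strand processing, had signals of 3631, 499, 2251 and 1964, a 6.27-fold lower level with PHA665752 (-2.65). LIG1, the ligase that seals the fragments, had signals of 3256, 884.8, 1283 and 1884 (-1.67), and DNA2, a helicase and nuclease, had -2.02. The single-strand binding protein RPA showed the smallest differences among the complexes, with a median of -1.01. RPA2 had signals of 4047, 1678, 2984 and 3190 (-1.06), its second probe gave -0.999, and RPA3 had signals of 37770, 16680, 21250 and 23030 (-0.97). Both RPA genes thus stood at the 2-fold limit, RPA3 just outside it. RPA1, the large subunit that is not a member, had -0.49, while its second, dimmer probe gave 0.36.

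Fork protection and chromatin assembly genes completed the list. CLSPN, the adaptor of the replication checkpoint, had signals of 1751, 99.2, 952 and 950.0, a 15.2-fold lower level with PHA665752 (log2 ratio -3.93, rank 18). TIMELESS and TIPIN form 1 complex at the fork but differed in size, at -1.44 for TIMELESS and -2.37 for TIPIN (signals 4531, 754, 3260 and 2542). WDHD1, which links the helicase to polymerase alpha, had -2.71 (SE between spots 0.019) and RECQL4, a helicase that acts in initiation, had -1.60. The chromatin assembly factor subunits CHAF1A and CHAF1B, which place histones behind the fork, had -2.83 and -2.32.

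**Figure D2:**
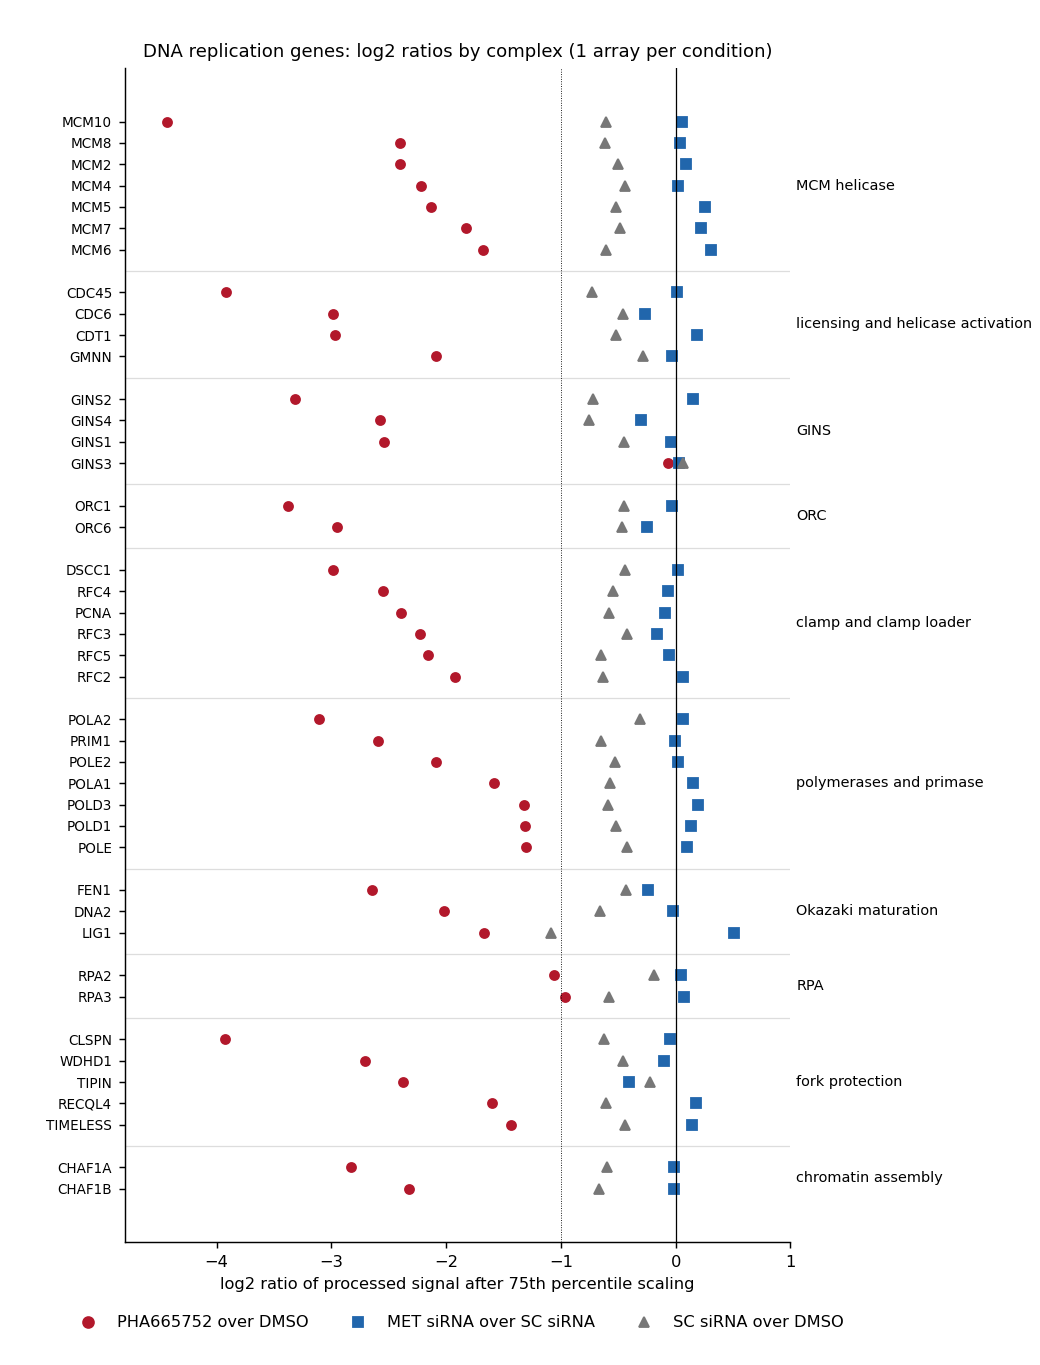
Log2 ratios (horizontal axis, after 75th percentile scaling) of the 42 replication genes with a ratio, grouped by complex and ordered by the PHA665752 ratio, with 1 array per condition and no error bars; dotted line, 2-fold lower. The PHA665752 circles lie between -4.43 and -0.07, with RPA3 and GINS3 alone right of the dotted line, the MET siRNA squares lie between -0.41 and 0.51, and the SC siRNA triangles lie between -1.09 and 0.07.

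With MET siRNA the replication genes differed little from SC siRNA. Of the 42 members, 0 were lower and 0 were higher by 2-fold or more, while 0.696% of all 13647 genes were lower and 2.04% were higher. The median log2 ratio was 0.02, with 18 members below 0 and 24 above it, and 21 of the 42 ratios were smaller than the scatter between spots. At a fold of 1.2, 3 members were lower, against 16.1% of all genes, and 2 were higher, also against 16.1%, while the other 37 differed by less. TIPIN had the lowest ratio (3260 with SC siRNA and 2542 with MET siRNA, log2 ratio -0.41), before GINS4 (-0.305) and CDC6 (-0.27). LIG1 had the highest (1283 and 1884, 0.51), before MCM6 (0.31). Of the MCM genes, the 7 with a ratio in every comparison lay above 0, from 0.02 for MCM4 upward, and MCM3, whose mark concerned the DMSO array alone and which is not among the 42, had -0.03 (14680 and 14800). Signs this close to 0 depend on the scaling: with the median of the probes well above background, of which the MET siRNA array had fewer, all ratios of this pair moved by -0.30, the median of the members became -0.28 and 40 of the 42 lay below 0, the MCM genes among them other than MCM6. The count past 2-fold remained 0 in both directions under every alternative, and whether the higher share of outlier spots on the MET siRNA array bears on these ratios was not tested.

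The inhibitor and siRNA ratios come from separate pairs of arrays that share no control, and time in culture may differ between the arms. For all 42 members the PHA665752 ratio lay below the MET siRNA ratio, by a median of -2.29 (-4.49 to -0.10). How many of all genes had this order was not counted, and over all genes PHA665752 ratios spread more widely than MET siRNA ratios. MET RNA, in contrast, had the lower ratio with MET siRNA. MET RNA does not measure the activity of the kinase. The study reports that PHA665752 lowered phosphorylated MET protein more effectively than the knockdown did. Whether this bears on the replication genes was not tested. Across the 42 genes the ratios had a Pearson r of 0.32 and a Spearman rho of 0.457, given as a description, since the genes are not independent and all 4 arrays lie on 1 slide.

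SC siRNA over DMSO compared the controls, which differ in transfection and in vehicle. The study gives a confluency, a medium change and a harvest time for transfected cells, but no timing of the inhibitor arm for the array. Time in culture and cell density may therefore differ too, and these differences cannot be told apart. This comparison shares the DMSO array with the inhibitor comparison and the SC siRNA array with the knockdown comparison. The replication genes were lower with SC siRNA than with DMSO by a small and even amount. LIG1 alone was lower by 2-fold or more, 1 of 42 members against 1.16% of all 14274 genes, and 0 were higher, against 2.89%. The median log2 ratio was -0.53, a 1.44-fold lower level, against -0.01 over all genes, and 41 of 42 members lay below 0. At a fold of 1.2, 39 of 42 were lower, against 18.5% of all genes. Of the 42, 37 lay among the lowest 10% of genes and 19 among the lowest 5%.

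LIG1 had 3256 with DMSO and 1283 with SC siRNA (log2 ratio -1.09, rank 131 of 14274), followed by GINS4 (-0.75), CDC45 (-0.73) and GINS2 (-0.72, SE between spots 0.027). The medians of the complexes lay between -0.38 for RPA and -0.66 for Okazaki fragment maturation, with the MCM genes at -0.52, GINS at -0.58, the clamp and its loaders at -0.56 and the polymerases and primase at -0.53. POLA2 (-0.31), GMNN (-0.28), TIPIN (-0.22) and RPA2 (-0.19) were the least lowered, and GINS3 had 0.07. The MCM7 probes disagreed here, at -0.49 and -1.02, while those of the other 6 genes with 2 probes differed by at most 0.267. Over the 10 alternatives the median of the members ran from -0.73 to -0.49.

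Set side by side, the 4 arrays had the same order for 41 of the 42 members: DMSO was the highest and PHA665752 the lowest, with both siRNA arrays between them. Of all 13415 genes with ratios in the 3 comparisons, 16.5% had DMSO highest and PHA665752 lowest. GINS3 was the exception, since its SC siRNA and MET siRNA levels were above that of DMSO after scaling. The median of the members was -0.53 for MET siRNA relative to DMSO and -1.76 for PHA665752 relative to MET siRNA (-3.88 to -0.16).

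**Figure D3:**
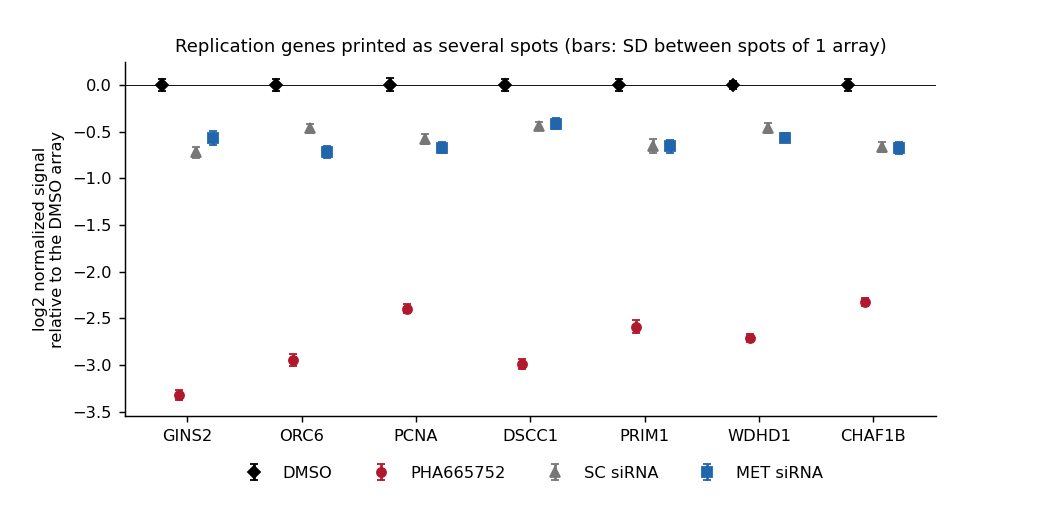
Log2 normalized signal relative to the DMSO array (vertical axis) for the 7 replication genes whose probe was printed as 10 spots, on each array; points are means and bars are the SD between the spots of that array, not between cultures. Ratios to DMSO were -3.32 to -2.32 with PHA665752 and -0.72 to -0.44 with SC siRNA, with SDs between spots of 0.038 to 0.0778.

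Replication genes outside the member list, such as further loaders, firing kinases and regulators, were mostly lower with PHA665752. Of 47 with a ratio, 40 lay below 0 and 7 above it. By 2-fold or more, 25 were lower and 0 were higher, with a median log2 ratio of -1.03. Members and comparison lists were chosen with earlier results of these data known, so the smaller fall here is not independent of that choice. The origin firing kinase CDC7 (-1.83) and its activator DBF4 (-1.62) passed 2-fold. MCMBP, which binds the MCM ring, passed it on its brighter probe (-1.26) but not on the other (-0.69). MCM9, the partner of MCM8, had 0.31 on its brightest probe and 0.52 to 0.83 on the others. The lowest of the rest were UHRF1 (-3.54), which brings DNA methylation to new DNA, DTL (-3.35), which targets CDT1 for destruction, ATAD5 (-2.96), which unloads PCNA, the histone chaperone ASF1B (-2.72) and MMS22L (-2.27), which acts in fork repair. The highest were the ubiquitin ligase scaffolds CUL4B (0.82) and CUL4A (0.81), the topoisomerase TOP2B (0.41), the ATR activator ETAA1 (0.08) and DDB1 (0.02), the adaptor of the CUL4 ligases. With MET siRNA 0 of the 47 were lower or higher, with a median of 0.00 (-0.000356), and with SC siRNA over DMSO the median was -0.25, with 35 of 47 below 0.

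Other cell cycle lists are given beside these for comparison. Of 33 mitosis genes, 32 were lower by 2-fold or more with PHA665752 (median -1.70), led by CDK1 (-2.44), AURKB (-2.27) and CCNA2 (-2.26), the median was 0.14 with MET siRNA, and all 33 lay below 0 with SC siRNA over DMSO (median -0.445). Of 27 nucleotide synthesis genes, 12 were lower with PHA665752 (median -0.97), led by RRM2 (-4.23) and TYMS (-2.89), which make deoxynucleotides and thymidylate, and with SC siRNA over DMSO the median was -0.195. Among 19 E2F and pocket protein genes, 7 were lower with PHA665752 (median -0.665), led by E2F2 (-3.68), E2F1 (-3.52) and CCNE2 (-3.30), whereas CDKN1B, an inhibitor of cyclin-dependent kinases, had 0.98. Of 16 reference genes, 3 were lower with PHA665752, TFRC and PGK1 among them, with medians of -0.08, -0.02 and -0.11 in the 3 comparisons. The MET siRNA medians of these lists move by -0.30 with the scaling on probes well above background, which turns the sign for the mitosis genes. Differences between these lists were not tested.

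**Figure D4:**
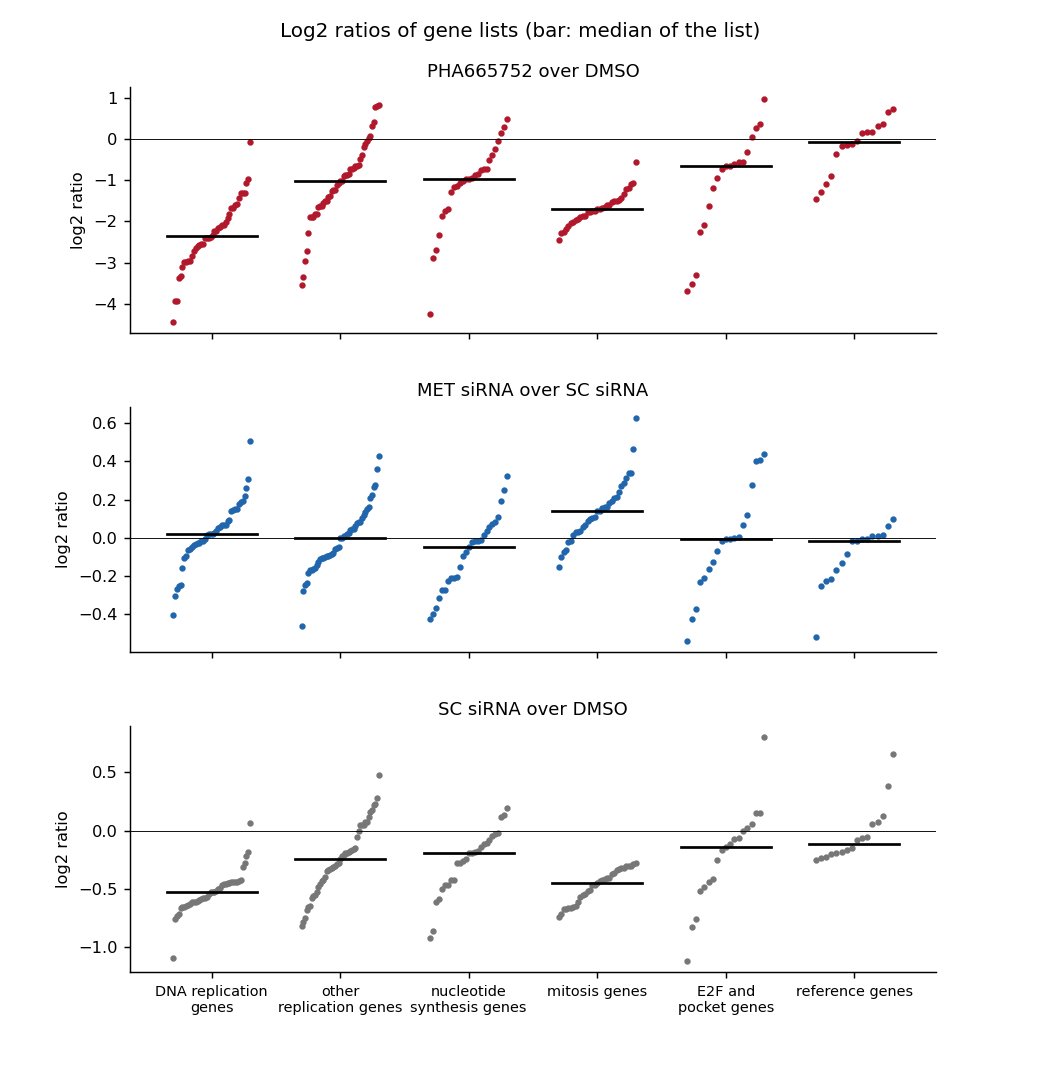
Log2 ratio (vertical axis) of each gene of 6 lists in the 3 comparisons, with 1 array per condition; each point is a gene and each bar the median of its list. With PHA665752 the medians are -2.35 for the replication genes, -1.03 for other replication genes, -0.97 for nucleotide synthesis, -1.70 for mitosis, -0.665 for E2F and pocket genes and -0.08 for reference genes. The lists were chosen with earlier results of these data known.

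Split by exact matches to the searched letters, members with E2F-type letters did not have a lower median ratio with PHA665752 than those without. The split depends on the letters searched. MCM10, CDC45 and CHAF1A count as without, but their windows hold tttggcgg on either strand, which differs from TTTGGCGC in the last letter. Whether the letters bear on the response was not tested. The median was -2.37 for the 19 members with the letters and a ratio (-3.93 to -0.07), -2.62 for the 14 without (-4.43 to -1.31) and -2.02 for the 9 with no window used (-2.99 to -0.97). Over all genes with a window, the 693 with the letters had a median of -0.08 and 14.7% were lower by 2-fold or more, against 0.07 and 7.85% for the 10655 without.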

How the data were processed

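Total RNA of Hs746T cells was measured on 4 single-colour arrays of 1 slide, 1 for each condition. The values are intensities from the scanner files that the authors deposited, made with Feature Extraction (version 11.5.1.1 per the file headers, while the study's methods name another version); the processed signal is background-subtracted, detrended and not normalized between arrays. The study's methods name GeneSpring without its normalization. The deposited series matrix holds the same processed signal within 0.05 for the 33128 probes spotted once, on a linear scale with no centring, and was used as an alternative.

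Control spots and spots marked as outliers were left out, log2 signals were averaged over the spots of each probe, and each array was scaled by subtracting its 75th percentile (Python 3.11.15, numpy 2.4.6, pandas 2.3.3). Of 34127 probes, 25771 were named through RefSeq transcript accessions, for 19740 genes, of which 18755 had a value on every array. The probe with the highest mean signal stood for its gene. Where a probe was not well above background, its ratio was a bound if this held for 1 array of the pair and was not formed if it held for both. With 1 array per condition no test was run, and precision is limited by the small number of arrays. The ratio step was tested on simulated data for PHA665752 over DMSO on 33770 probes, where 200 of 200 changed probes were recovered with 0 false calls. That checks the calculation alone and gives no error rate for the real arrays.

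The members, the complexes and the comparison lists were chosen with earlier results of these data known. All 43 members are named, with the subunits that complete their complexes, the 5 lowest and 5 highest of the remaining replication genes with PHA665752, MET, and at most 3 genes at each end of the other lists. Alternatives were the 50th percentile, the median of probes well above background, the median of the 16 reference genes, quantile normalization and normexp background correction with an offset of 50 (limma 3.58.1 in R 4.3.3), the filters on dim probes, the median over probes of a gene, outlier spots kept, and the series matrix. Promoter windows were searched for exact letters on both strands. Some genes of the comparison lists are not reported here by name.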

Additional observations from a re-analysis of the deposited data

How the results depend on the processing

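No paired analysis was possible because each condition was 1 array, so no replicate could be left out either. Under the 10 alternatives no ratio of a member that passed 2-fold turned its sign, and the members lower by 2-fold or more with PHA665752 numbered 39 to 41. The median log2 ratio of the members with PHA665752, -2.35, became -2.59 with the 50th percentile, -2.44 with the median of probes well above background, -2.635 with the reference genes and -2.15 with normexp. For MET siRNA the median of 0.02 became -0.28 with the median of probes well above background. For SC siRNA over DMSO the median of -0.53 became -0.62 with the 50th percentile and -0.73 with the reference genes. The scalings moved all ratios of a pair alike: with PHA665752 by -0.25 for the 50th percentile and -0.29 for the reference genes, with MET siRNA by -0.30 for the probes well above background, and with SC siRNA over DMSO by -0.20 for the reference genes. Over all genes the split of lower to higher with PHA665752, 8.04% to 13.1%, was 12.3% to 9.07% with the 50th percentile, 13.3% to 8.50% with the reference genes and 5.92% to 6.73% with normexp. With normexp 0.101% of genes were lower and 0.448% higher with MET siRNA, and 0.262% and 1.41% for SC siRNA over DMSO. With normexp the PHA665752 ratios of MCM10, CDC6, ORC1, ORC6, RFC3 and POLE2 moved by over 1.5 times in fold, and POLE no longer passed 2-fold.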
